A study of Homo sapiens with 24 samples.

Results

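The myeloid regulator SPI1 and 9 other leukocyte genes (LST1, TYROBP, CD33, FYB, PTPN22, SLAMF6, TRIM22, SIGLEC6 and FCER1G) were examined in K562 cells, a human leukaemia line of erythroid and megakaryocyte character, in which GATA1 was repressed to different degrees. The 10 genes are 10 of 21925 entries in the count table and were chosen by their measured levels and changes against the control libraries, since they had been seen to stand higher where GATA1 was lower. Their changes against the controls and between the GATA1-lowering sgRNAs are therefore a description. Where an adjusted p under 0.05 is counted among them, the count stands beside the share of all genes if that share was computed. Nothing is read from such a count. Of the 10, 9 passed the filter on low counts, as did 13147 genes in all. FCER1G did not pass.

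SPI1 encodes PU.1, an ETS-family transcription factor that drives myeloid and B cell genes and binds purine-rich sites with a GGAA core. PU.1 and GATA1 bind to each other and each restrains the other's target genes, and this antagonism is a textbook case of the choice between the myeloid and the erythroid lineage. CD33 and SIGLEC6 are surface lectins of the Siglec family that bind sialic acid and carry inhibitory tails, and SLAMF6 is a receptor of the SLAM family on lymphocytes. TYROBP (also called DAP12) and FCER1G are small adaptors whose ITAM motifs pass signals from activating receptors to the kinase SYK.

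Each library was made from polyadenylated RNA of 10000 cells, which had received 1 sgRNA and then 24 hours of doxycycline to induce a nuclease-dead Cas9 joined to the KRAB repressor domain. All cells, the controls included, carried this repressor and received the drug. The tested elements were the GATA1 transcription start site (sgRNAs GATA1TSS-Guide1 and GATA1TSS-Guide2, 6 libraries) and eHDAC6, a putative GATA1 enhancer (eHDAC6-Guide1 and eHDAC6-Guide2, 6 libraries), and the controls were 4 non-targeting sgRNAs (NC-Guide1 to NC-Guide4, 12 libraries), with 3 biological replicates per sgRNA. Sources used here do not say whether the cells were a single clone.

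Levels are library-scaled counts (CPM) after TMM scaling, and log2 changes come from an edgeR fit over all 24 libraries or, where the 4 NC libraries described below are the controls, from a separate fit without the other 8 (13126 genes tested). Library totals ran from 4290343 counts (GATA1TSS-Guide2 replicate 2) to 23205811, and the second lowest was 7327820. GATA1 stood at 96.2 to 130 CPM with GATA1TSS-Guide1, at 42.1 to 60.2 CPM with GATA1TSS-Guide2 and at 242 to 267 CPM with eHDAC6, against 281 to 395 CPM in NC libraries, so each targeted library lay below every NC library. The NC libraries split into 4 (NC-Guide3 and NC-Guide4, each in replicates 2 and 3) and the other 8 along their first principal component, which held 26.1% of their variance. This split came from the data and has no label, so changes are given against all 12 and against the 4. In bulk RNA, more cells that express a gene and more RNA per cell cannot be told apart.

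SPI1 stood higher with both elements than in most NC libraries. Its levels were 110, 101 and 104 CPM with GATA1TSS-Guide1, 132, 111 and 141 CPM with GATA1TSS-Guide2, 111, 115 and 111 CPM with eHDAC6-Guide1 and 117, 117 and 124 CPM with eHDAC6-Guide2. Among NC libraries the 4 held 97.9, 91.6, 103 and 92.6 CPM and the 8 held 44.7 to 79.1 CPM (median 60.0). All eHDAC6 and GATA1TSS-Guide2 libraries were above all NC libraries, while the lowest GATA1TSS-Guide1 library lay below the highest of the 4. The gene lies on the minus strand of chromosome 11 (hg19, 47376409 to 47400127). Its log2 change was 0.71 with GATA1TSS (SE 0.09) and 0.70 with eHDAC6 (SE 0.09) against all 12 NC libraries. Against the 4 alone, these values were 0.27 (SE 0.06) and 0.26 (SE 0.06), so the size of the SPI1 difference depended on which controls were taken.

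**Figure D1:**
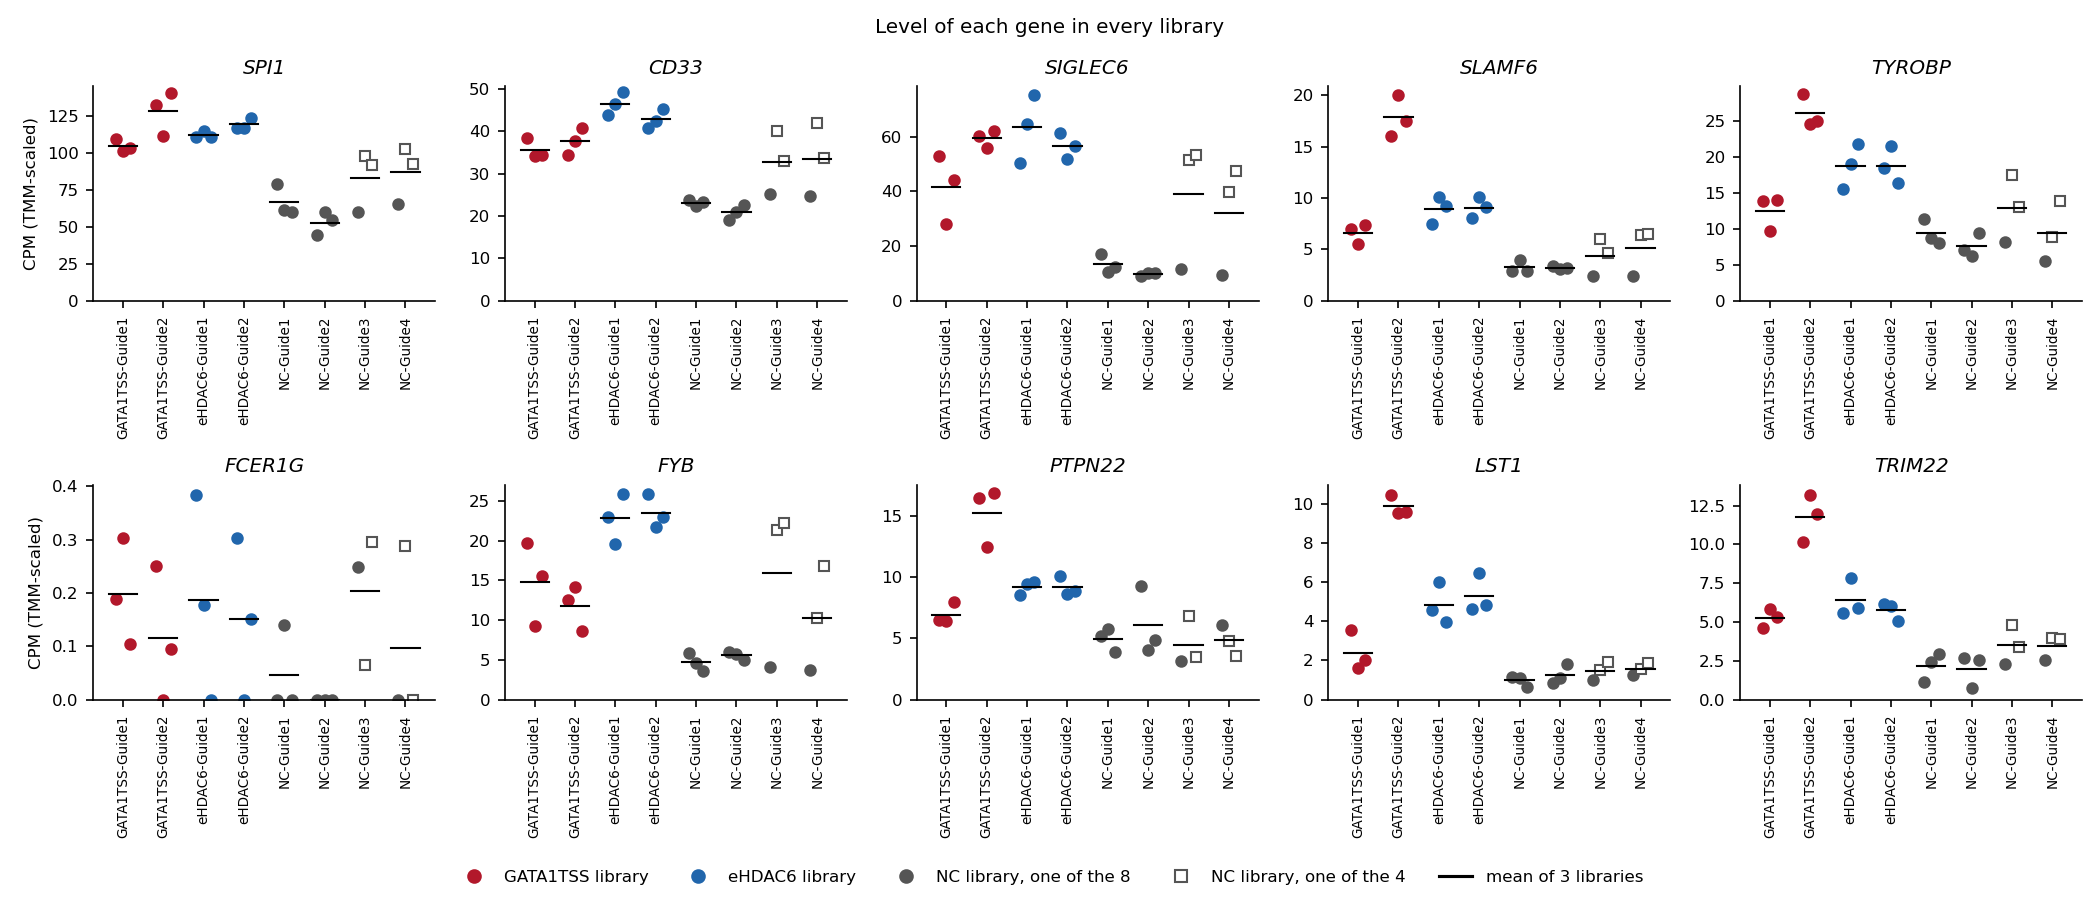
Level of each of the 10 genes (vertical axes, TMM-scaled CPM) in every library, by sgRNA (horizontal axes), with targeted sgRNAs left of NC; bars are means of 3 libraries and open squares are the 4 NC libraries. LST1, SLAMF6, TYROBP, PTPN22 and TRIM22 are highest in the 3 GATA1TSS-Guide2 libraries, SPI1, CD33, SIGLEC6 and FYB are high in the 4 NC libraries as well, and FCER1G stays at or below 0.383 CPM.

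CD33 and SIGLEC6, which lie on the long arm of chromosome 19 (hg19, 51728335 to 51743274 and 52022784 to 52035110), also followed the split of the controls. CD33 held 38.4, 34.2 and 34.4 CPM with GATA1TSS-Guide1, 34.4, 37.8 and 40.9 CPM with GATA1TSS-Guide2, 43.7, 46.4 and 49.2 CPM with eHDAC6-Guide1 and 40.8, 42.4 and 45.1 CPM with eHDAC6-Guide2. Its NC libraries held 40.0, 33.0, 41.9 and 33.6 CPM in the 4 and 18.99 to 25.3 CPM in the 8 (median 22.98). The GATA1TSS libraries thus spanned the same range as the 4, and the change of 0.44 (SE 0.09) against all 12 NC libraries was -0.02 (SE 0.08) against the 4. With eHDAC6 the change was 0.73 (SE 0.09) against all 12 and 0.26 (SE 0.08) against the 4. SIGLEC6 held 52.9, 27.9 and 44.3 CPM with GATA1TSS-Guide1, 60.2, 55.7 and 62.2 CPM with GATA1TSS-Guide2, 50.2, 64.8 and 75.3 CPM with eHDAC6-Guide1 and 61.2, 52.0 and 56.6 CPM with eHDAC6-Guide2. In NC libraries it held 51.7, 53.4, 39.7 and 47.4 CPM in the 4 and only 8.98 to 16.9 CPM in the 8 (median 10.4). Its change of 1.33 (SE 0.24) with GATA1TSS against all 12 NC libraries was 0.06 (SE 0.13) against the 4, and that of 1.59 (SE 0.24) with eHDAC6 was 0.32 (SE 0.13).

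SLAMF6 (chromosome 1, hg19, 160454820 to 160493052) was highest with the sgRNA that left least GATA1, and was also higher in the 4 than in the 8. It held 6.95, 5.54 and 7.35 CPM with GATA1TSS-Guide1, 16.1, 20.0 and 17.5 CPM with GATA1TSS-Guide2, 7.47, 10.1 and 9.25 CPM with eHDAC6-Guide1 and 8.02, 10.1 and 9.07 CPM with eHDAC6-Guide2. The 4 NC libraries held 6.04, 4.67, 6.42 and 6.45 CPM and the 8 held 2.36 to 3.94 CPM (median 3.00). GATA1TSS-Guide1 overlapped the 4, while GATA1TSS-Guide2 and eHDAC6 stood above all NC libraries. The change was 1.46 with GATA1TSS (SE 0.16) and 1.20 with eHDAC6 (SE 0.17), and 0.87 and 0.60 against the 4 (SE 0.13 each).

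TYROBP (chromosome 19, hg19, 36395303 to 36399211) held 13.8, 9.62 and 13.98 CPM with GATA1TSS-Guide1, 28.7, 24.6 and 24.9 CPM with GATA1TSS-Guide2, 15.5, 18.98 and 21.8 CPM with eHDAC6-Guide1 and 18.5, 21.5 and 16.4 CPM with eHDAC6-Guide2. NC libraries held 17.4, 12.96, 8.80 and 13.8 CPM in the 4 and 5.52 to 11.3 CPM in the 8 (median 8.08). GATA1TSS-Guide1 overlapped both NC subsets, eHDAC6 overlapped the 4, and the 3 GATA1TSS-Guide2 libraries stood above all 12. The change was 0.92 with GATA1TSS (SE 0.15) and 0.97 with eHDAC6 (SE 0.15), and 0.46 and 0.51 against the 4 (SE 0.14 each).

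The promoters of these 4 genes are shown because they encode the surface receptors and the ITAM adaptor that could be measured. RefSeq windows on GRCh38.p14 run from 250 bases before to 50 after the transcript start, 5′ to 3′ on the strand of the gene, and matched 8 of the 10 genes. Capitals mark matches to a pair of motifs searched on both strands. The first is GAGGAA, a core of PU.1 and other ETS sites, which reads TTCCTC on the other strand. The second, a site for GATA1 and its relatives, is AGATAA on one strand and therefore reads TTATCT on the opposite one. No match of one overlapped a match of the other. The CD33 window is chr19:51224830-51225129 (plus strand), that of SIGLEC6 is chr19:51531621-51531920 (minus), that of SLAMF6 is chr1:160523206-160523505 (minus) and that of TYROBP is chr19:35908246-35908545 (minus).
CD33: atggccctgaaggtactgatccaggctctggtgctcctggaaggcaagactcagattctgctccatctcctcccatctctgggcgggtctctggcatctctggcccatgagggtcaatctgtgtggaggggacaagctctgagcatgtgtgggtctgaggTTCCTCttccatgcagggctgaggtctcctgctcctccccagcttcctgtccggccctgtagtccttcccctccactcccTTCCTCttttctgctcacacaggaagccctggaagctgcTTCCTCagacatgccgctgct
SIGLEC6: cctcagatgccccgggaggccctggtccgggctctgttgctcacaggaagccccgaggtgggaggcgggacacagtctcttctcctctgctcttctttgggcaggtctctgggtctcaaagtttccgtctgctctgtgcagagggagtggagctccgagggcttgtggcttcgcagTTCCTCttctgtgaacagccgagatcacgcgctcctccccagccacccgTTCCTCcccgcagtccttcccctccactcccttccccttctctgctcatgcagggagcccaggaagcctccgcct
SLAMF6: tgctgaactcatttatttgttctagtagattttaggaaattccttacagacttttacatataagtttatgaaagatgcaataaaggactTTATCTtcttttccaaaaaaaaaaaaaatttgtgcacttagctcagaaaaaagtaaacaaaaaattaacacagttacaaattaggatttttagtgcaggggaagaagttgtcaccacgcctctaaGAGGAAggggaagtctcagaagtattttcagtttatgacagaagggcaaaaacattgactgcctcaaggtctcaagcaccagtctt
TYROBP: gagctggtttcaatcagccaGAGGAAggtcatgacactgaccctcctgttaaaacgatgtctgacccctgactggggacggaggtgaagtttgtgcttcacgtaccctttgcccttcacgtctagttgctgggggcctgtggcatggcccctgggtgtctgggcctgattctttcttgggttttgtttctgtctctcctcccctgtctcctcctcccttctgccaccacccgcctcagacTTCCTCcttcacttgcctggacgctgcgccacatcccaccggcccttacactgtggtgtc
GAGGAA was found in 8 of 11 windows of the genes, which belong to 6 genes, and in 27.853% of 35116 background windows. The background did not cover all genes. AGATAA was found in 2 windows, of SLAMF6 and FYB, and in 10.331% of the same 35116 windows. CD33 has 3 matches to the ETS core, SIGLEC6 has 2, TYROBP has 2 and SLAMF6 has 1 beside its GATA match at -161 to -156. The CD33 and SIGLEC6 windows share a run of 24 bases, agtccttcccctccactcccttcc, at -30 to -7 in CD33 and at -14 to 10 in SIGLEC6. These matches are letters in a window and do not show binding.

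FCER1G, the other ITAM adaptor, had too few counts to say whether it behaved like TYROBP. It held 0 to 6 counts per library. It was at 0 in 1 of 6 GATA1TSS libraries, 2 of 6 eHDAC6 libraries and 7 of 12 NC libraries, and its counts summed to 20, 14 and 15. The highest value in any library was 0.383 CPM, and a count of 0 in the shallowest library, at 3 counts, allows up to 0.683 CPM. Its mean was 0.157 CPM with GATA1TSS, 0.169 CPM with eHDAC6, 0.0865 CPM in NC libraries and 0.162 CPM in the 4. At this depth a difference could be neither detected nor excluded. The label of a gene that is higher with lower GATA1 could therefore not be checked for FCER1G. It lies on chromosome 1 (hg19, 161185087 to 161189038).

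The remaining genes were not alike. FYB, an adaptor of T cells and platelets that links receptors to integrins (chromosome 5, hg19, 39105354 to 39270759), held 19.6, 9.21 and 15.6 CPM with GATA1TSS-Guide1, 12.6, 14.1 and 8.60 CPM with GATA1TSS-Guide2, 22.98, 19.6 and 25.9 CPM with eHDAC6-Guide1 and 25.8, 21.7 and 22.98 CPM with eHDAC6-Guide2. In NC libraries it held 21.4, 22.2, 10.2 and 16.8 CPM in the 4 and 3.62 to 5.98 CPM in the 8 (median 4.80). All targeted libraries were above the 8, but the GATA1TSS-Guide2 libraries, lowest in GATA1, lay below every eHDAC6 library. The change with GATA1TSS was 0.70 (SE 0.26) against all 12 NC libraries and -0.41 (SE 0.17) against the 4, and with eHDAC6 it was 1.53 (SE 0.24) and 0.43 (SE 0.16).

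PTPN22, a phosphatase that dampens antigen receptor signalling in lymphocytes (chromosome 1, hg19, 114356433 to 114414381), held 6.48, 6.39 and 7.97 CPM with GATA1TSS-Guide1, 16.5, 12.5 and 16.9 CPM with GATA1TSS-Guide2, 8.56, 9.49 and 9.63 CPM with eHDAC6-Guide1 and 10.1, 8.61 and 8.92 CPM with eHDAC6-Guide2. In NC libraries it held 6.82, 3.48, 4.83 and 3.60 CPM in the 4 and 3.16 to 9.29 CPM in the 8 (median 5.02). It was the 1 gene of the 9 that was not higher in the 4 than in the 8. Its change of 1.05 (SE 0.15) with GATA1TSS was 1.15 (SE 0.16) against the 4, and that of 0.87 (SE 0.16) with eHDAC6 was 0.97 (SE 0.16). Its exons overlap those of AP4B1-AS1 on the opposite strand by 105 bases, and whether strand was used in counting is not given in the sources used here. AP4B1-AS1 itself rose by 0.35 with GATA1TSS (SE 0.06) and by 0.32 with eHDAC6 (SE 0.06) and passed against the 4 with both (0.37 and 0.33), so the reads of this pair cannot be told apart where they overlap.

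LST1, a small membrane protein of leukocytes encoded in the MHC region (chromosome 6, hg19, 31553956 to 31556686), had the largest changes of the 9 genes with either element against all 12 NC libraries and against the 4. Against the 8, SIGLEC6 was larger with GATA1TSS (2.23, with LST1 at 2.16), and SIGLEC6 and FYB were larger with eHDAC6 (2.49 and 2.41, with LST1 at 2.21). It held 3.55, 1.61 and 2.02 CPM with GATA1TSS-Guide1, 10.47, 9.56 and 9.60 CPM with GATA1TSS-Guide2, 4.60, 6.03 and 3.94 CPM with eHDAC6-Guide1 and 4.61, 6.46 and 4.84 CPM with eHDAC6-Guide2. The 4 NC libraries held 1.49, 1.93, 1.59 and 1.88 CPM and the 8 held 0.664 to 1.82 CPM (median 1.12). GATA1TSS-Guide2 and eHDAC6 each stood above all NC libraries and did not overlap each other, while GATA1TSS-Guide1 overlapped NC. The change was 1.91 with GATA1TSS (SE 0.18) and 1.96 with eHDAC6 (SE 0.18), and 1.51 and 1.55 against the 4 (SE 0.22 each). LST1 shares 27 exon bases with NCR3 on the opposite strand.

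TRIM22, an interferon-inducible antiviral protein (chromosome 11, hg19, 5710817 to 5732093), held 4.59, 5.84 and 5.33 CPM with GATA1TSS-Guide1, 10.1, 13.2 and 11.97 CPM with GATA1TSS-Guide2, 5.55, 7.81 and 5.92 CPM with eHDAC6-Guide1 and 6.13, 6.03 and 5.07 CPM with eHDAC6-Guide2. NC libraries held 4.81, 3.41, 3.97 and 3.90 CPM in the 4 and 0.720 to 2.95 CPM in the 8 (median 2.48). The eHDAC6 and GATA1TSS-Guide2 libraries were above all NC libraries. The change was 1.52 with GATA1TSS (SE 0.17) and 1.15 with eHDAC6 (SE 0.18), and 0.94 and 0.58 against the 4 (SE 0.15 each).

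Per kilobase of exon, SPI1 had the highest level of the 10 genes in all groups, at 82.7 CPM per kb with GATA1TSS, 82.2 with eHDAC6 and 51.5 in NC libraries. TYROBP followed with GATA1TSS and eHDAC6, at 32.6 and 31.8 CPM per kb, against 16.6 in NC libraries. CD33 stood at 22.8, 27.7 and 17.1 CPM per kb with GATA1TSS, with eHDAC6 and in NC libraries, and SIGLEC6 at 23.5, 27.8 and 10.9. LST1 (6.86, 5.68 and 1.48 CPM per kb in the same order) and TRIM22 (2.75, 1.97 and 0.901) were weakly expressed throughout. So were SLAMF6 (4.46, 3.28 and 1.45), PTPN22 (3.04, 2.52 and 1.39) and FYB (2.69, 4.69 and 1.85). The ratios of these genes therefore rest on low levels.

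Against all 12 NC libraries, 9 of the 9 genes that passed the filter had an edgeR adjusted p under 0.05 with GATA1TSS, where 13.5% of all genes did so with a higher level, and 9 of 9 did with eHDAC6, where 15.8% did. These calls are what the genes were chosen for, and both comparisons use the same NC libraries. With counts summed per sgRNA, 6 of the 9 were called with GATA1TSS and 1 with eHDAC6. The share of all genes called in that fit was not computed. The median log2 change over the 9 was 1.05 with GATA1TSS and 1.15 with eHDAC6, against -0.00286 and -0.00860 over all genes. Against the 8 alone the changes ran from 0.67 (CD33) to 2.23 (SIGLEC6) with GATA1TSS and from 0.94 (PTPN22) to 2.49 (SIGLEC6) with eHDAC6. Against the 4 NC libraries the medians were 0.46 and 0.51, with 6 genes called higher with GATA1TSS (4.84% of all genes) and 4 with eHDAC6 (0.899% of all genes). The 4 called with eHDAC6 there were SPI1, SLAMF6, PTPN22 and LST1, and GATA1TSS added TYROBP and TRIM22. Taken alone against the 4, GATA1TSS-Guide1 had none of the 9 called higher (0.213% of all genes), with log2 changes from -0.21 for FYB to 0.56 for PTPN22. GATA1TSS-Guide2 had 6 called higher (9.33% of all genes) and 1, FYB, called lower (9.86% of all genes).

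**Figure D2:**
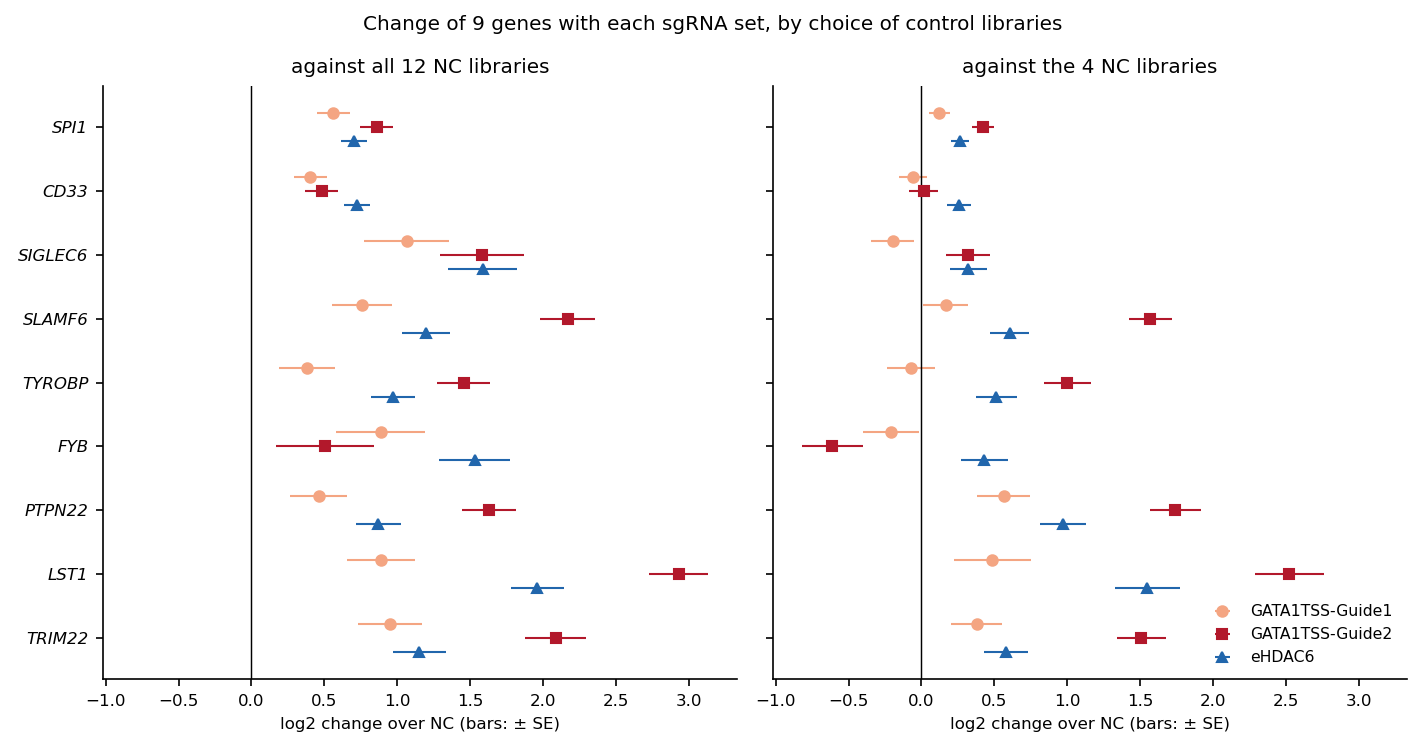
Log2 change over NC (horizontal axes, points with SE bars) of the 9 genes that passed the filter, for GATA1TSS-Guide1, GATA1TSS-Guide2 and eHDAC6, against all 12 NC libraries (left) and against the 4 (right). All points lie above 0 on the left; on the right CD33, SIGLEC6 and FYB lie between -0.61 and 0.32 with the GATA1TSS sgRNAs, and LST1 with GATA1TSS-Guide2 is at 2.53.

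The 2 GATA1TSS sgRNAs, whose difference in GATA1 entered the choice of the genes, gave unlike levels for some of them. With GATA1TSS-Guide1, none of the 10 genes had all 3 libraries above all 12 NC libraries (1.57% of all genes did), whereas with GATA1TSS-Guide2 7 of 10 did (5.52% of all genes): SPI1, SIGLEC6, SLAMF6, TYROBP, PTPN22, LST1 and TRIM22. With eHDAC6, 4 of 10 had all 6 libraries above (0.905% of all genes), namely SPI1, SLAMF6, LST1 and TRIM22. GATA1TSS-Guide2 minus GATA1TSS-Guide1 was largest for LST1 at 2.04 (SE 0.26), followed by SLAMF6 at 1.41 (SE 0.25), PTPN22 at 1.17 (SE 0.24), TRIM22 at 1.14 (SE 0.27) and TYROBP at 1.07 (SE 0.24). These 5 had an adjusted p under 0.05, beside 1.77% of all genes. In the fit with the 4 NC libraries SPI1 (0.30, SE 0.08) and SIGLEC6 (0.52, SE 0.16) did as well, with no share of all genes computed. In the fit over all libraries SIGLEC6 stood at 0.52 (SE 0.38), SPI1 at 0.30 (SE 0.15), CD33 at 0.08 (SE 0.14) and FYB at -0.38 (SE 0.40).

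Levels did not follow the level of GATA1 in order. eHDAC6 libraries had more GATA1 than GATA1TSS-Guide1 libraries, by 1.12 on the log2 scale (SE 0.10), and yet each of the 9 genes had a higher fitted level with eHDAC6 than with GATA1TSS-Guide1. The difference ran from 0.14 for SPI1 (SE 0.13) to 1.07 for LST1 (SE 0.24), with a median of 0.44, and none of the 9 was called (0.0228% of all genes were called higher). In the fit with the 4 NC libraries, 1 of the 9, LST1, was called (1.06, SE 0.22), with no share of all genes computed. For 6 of 10 genes (SPI1, CD33, SLAMF6, TYROBP, PTPN22 and LST1) every eHDAC6 library stood above every GATA1TSS-Guide1 library, as was so for 2.49% of all genes. GATA1TSS-Guide2, in turn, stood above every eHDAC6 library for SLAMF6, TYROBP, PTPN22, LST1 and TRIM22 (8.06% of all genes), and below for FYB (8.67% of all genes).

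**Figure D3:**
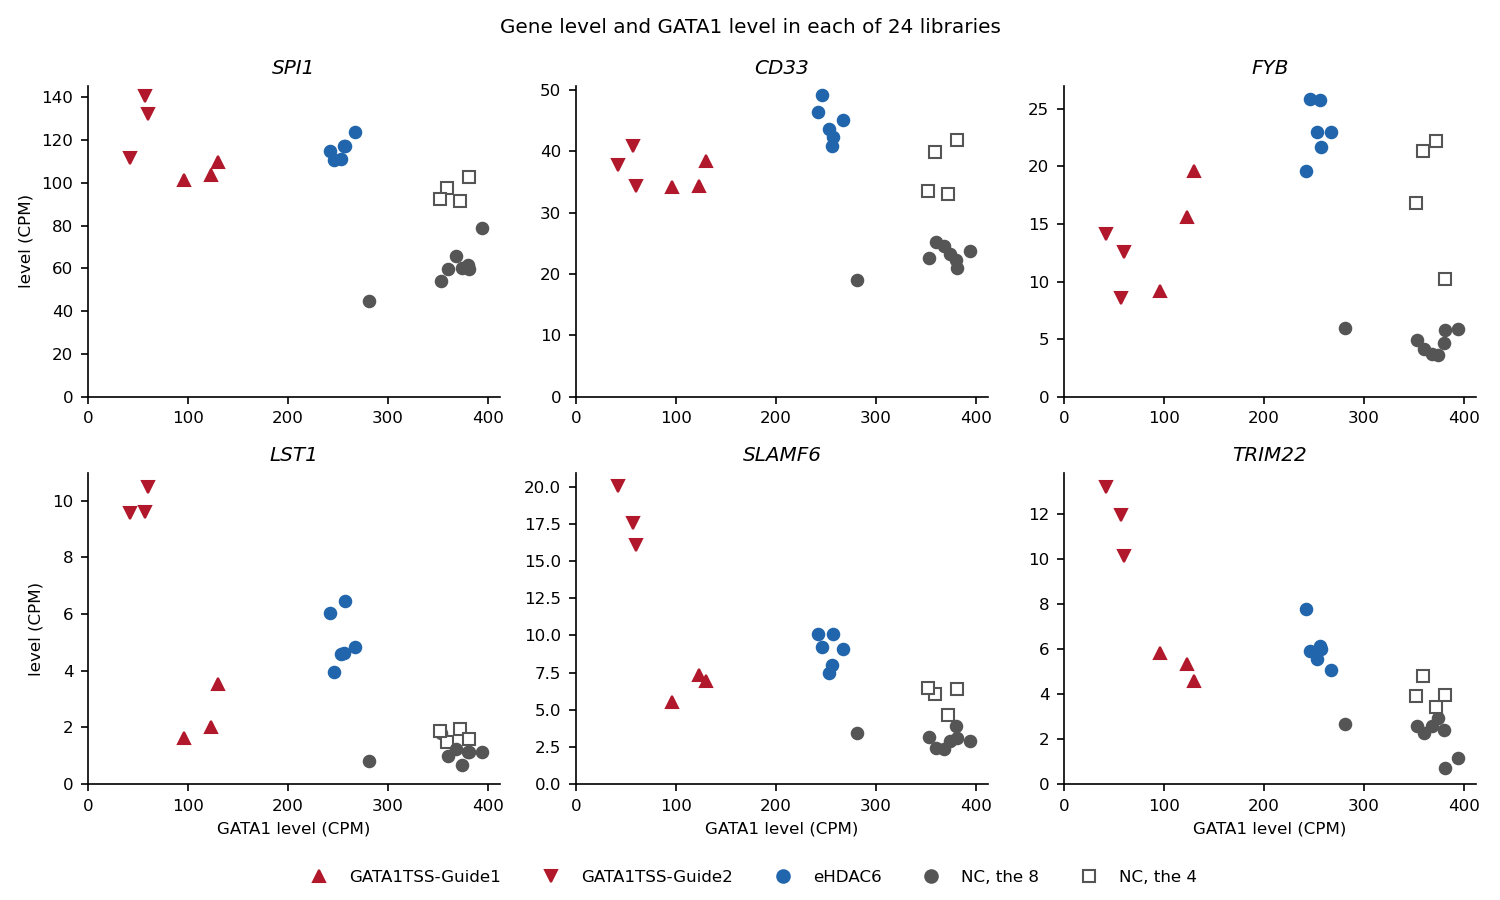
Level of 6 genes (vertical axes, CPM) against the level of GATA1 (horizontal axes, CPM) in each of the 24 libraries, marked by sgRNA group and NC subset. eHDAC6 libraries, at 242 to 267 CPM of GATA1, stand level with or above GATA1TSS-Guide1 libraries at 96.2 to 130 CPM, and the 4 and the 8 NC libraries differ in SPI1, CD33, FYB, SLAMF6 and TRIM22 at like GATA1 levels.

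The choice of the genes did not use the comparison of the eHDAC6 sgRNAs with each other, but it did use levels measured with each. This comparison is therefore not independent of the choice and is a description. GATA1 differed between the eHDAC6 sgRNAs by 0.07 on the log2 scale (SE 0.11). None of the 9 genes was called in eHDAC6-Guide2 minus eHDAC6-Guide1 by edgeR or by DESeq2, and 0 of 9 had an unadjusted p under 0.05, while 0.0152% of all genes were called. Differences ran from -0.16 (SIGLEC6, SE 0.38, edgeR adjusted p = 0.9997) to 0.13 (LST1, SE 0.27). For SPI1 the difference was 0.09 (SE 0.15), although its 3 eHDAC6-Guide2 libraries lay above the 3 of eHDAC6-Guide1, as 5.48% of all genes did.

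The NC libraries also differed among themselves, and since they entered the choice of the genes, this too is a description. Among the 4 NC sgRNAs edgeR called 4 of the 9 genes (CD33, SIGLEC6, SPI1 and FYB), where 12.3% of all genes were called. All 4 called genes had their highest NC means with NC-Guide3 and NC-Guide4, which hold the 4 libraries that stand apart. None of the 9 was called by edgeR when the NC libraries were limited to the 4 or to the 8 (1 and 0 at an unadjusted p under 0.05; DESeq2 was not run on the subsets). Without NC-Guide2 replicate 1, 2 of the 9 were called. Over the 4 and the 8, the mean level was 4.27-fold higher in the 4 for SIGLEC6, 3.65-fold for FYB, 1.95-fold for SLAMF6, 1.86-fold for TRIM22, 1.65-fold for TYROBP, 1.63-fold for CD33, 1.59-fold for SPI1, 1.54-fold for LST1 and 0.885-fold for PTPN22. All of the 4 stood above all of the 8 for SPI1, CD33, SIGLEC6, SLAMF6, FYB and TRIM22, as was so for 5.83% of all genes.

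Other leukocyte genes, from lists of myeloid, lymphoid, signalling, Siglec, SLAM, ETS and interferon genes, were tested in the fit over all genes. Of 131 listed, 112 were in the table and 78 passed the filter. With GATA1TSS 34 rose and 2 fell (13.5% of all genes rose and 13.7% fell), with a median log2 change of 0.28. With eHDAC6 31 rose and 2 fell (15.8% and 15.3% of all genes), with a median of 0.26. Against the 4 NC libraries 12 of 80 rose with GATA1TSS and 3 of 80 with eHDAC6 (4.84% and 0.899% of all genes), and none fell (5.39% and 0.587% of all genes). The GATA1TSS sgRNAs differed here. GATA1TSS-Guide1 alone gave 0 rises and 0 falls among the 80 (0.213% and 0.137% of all genes). GATA1TSS-Guide2 alone gave 29 rises and 1 fall (9.33% and 9.86% of all genes). Without GATA1TSS-Guide2 replicate 3, 22 rose with GATA1TSS. Without GATA1TSS-Guide1 replicate 1, NC-Guide3 replicate 1 or NC-Guide4 replicate 1, 1 fell, and without eHDAC6-Guide1 replicate 1, 1 fell with eHDAC6.

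Of 12 myeloid genes tested, 4 rose with GATA1TSS and 6 with eHDAC6 (13.5% and 15.8% of all genes). ITGAX, the integrin chain CD11c, averaged 4.38 ± 3.17 CPM with GATA1TSS (SD, n = 6) and 2.01 ± 0.470 CPM with eHDAC6 (n = 6), against 1.01 ± 0.518 CPM in NC libraries (n = 12). It rose by 1.83 with GATA1TSS (SE 0.24, edgeR adjusted p = 1.83e-06) and by 1.09 with eHDAC6 (SE 0.26, edgeR adjusted p = 0.00227), and of these the GATA1TSS rise passed against the 4 (1.66). CD68, a lysosomal protein of macrophages, rose by 0.76 (SE 0.11) and 0.96 (SE 0.11) and passed against the 4 with both (0.21 and 0.41). Of 13 lymphoid genes 4 rose with GATA1TSS (13.5% of all genes), while the eHDAC6 comparison called 1 higher and 1 lower (15.8% and 15.3%). Of the 4, CD3E and NKG7 lost the call in 17 and 11 of the 24 fits that left out 1 library. The count was 2 without GATA1TSS-Guide1 replicate 1 or 3, GATA1TSS-Guide2 replicate 1 or 3, NC-Guide1 replicate 3, NC-Guide3 replicate 2 or NC-Guide4 replicate 1. Without GATA1TSS-Guide1 replicate 2, 1 lymphoid gene fell with GATA1TSS, and without eHDAC6-Guide1 replicate 1 none fell with eHDAC6. CD3D, a chain of the T cell receptor complex, rose by 0.51 with GATA1TSS (SE 0.14; 0.72 against the 4) and stood at 0.05 with eHDAC6. The difference between the elements was not tested. With GATA1TSS-Guide1 taken alone, the rises of ITGAX, CD3D, CD3E, NKG7 and the genes PTPN6, CD84, GFI1 and LTB described below were not called. With counts summed per sgRNA, the GATA1TSS rises of CD3D, CD3E, NKG7, CD84, SIGLEC12, GFI1 and LTB were not called. In that fit the eHDAC6 rises of ITGAX, VAV1, SIGLEC12, ELF4, ETV6 and TRIM38 were not called either.

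Levels within the marker lists differed widely, and the examples that follow were picked after their values were seen. FCGR2A, an Fc receptor of myeloid cells, averaged 150.3 CPM with GATA1TSS, 142.9 CPM with eHDAC6 and 116 CPM in NC libraries. CD22, a Siglec of B cells, averaged 15.6, 14.6 and 13.6 CPM in the same order. S100A8, a granulocyte protein, had 23 counts over the GATA1TSS libraries, 6 over the eHDAC6 libraries and 2 over the NC libraries. CD14 and MPO averaged 0.0725 and 0.0494 CPM with GATA1TSS, 0.0439 and 0.0485 CPM with eHDAC6 and 0.130 and 0.0600 CPM in NC libraries. CD2, MS4A1, IL7R and LCK had at most 6 counts over all libraries of any element. LYZ averaged 83.7 CPM with GATA1TSS, 83.2 CPM with eHDAC6 and 76.3 CPM in NC libraries and was not called. Summed over the 20 myeloid genes in the table, none of which was without a count, the level was 318 to 457 CPM with GATA1TSS, 356 to 394 CPM with eHDAC6, 299 to 339 CPM in the 4 NC libraries and 227 to 323 CPM in the 8. Over the 23 lymphoid genes it was 192 to 243, 179 to 203, 177 to 198 and 174 to 196 CPM in the same order. A list of K562 genes, which names BCR and ABL1 beside erythroid genes, moved the other way against all 12 NC libraries. Tested from this list were 8 genes, which include the globin HBE1 and the erythroid factor KLF1. All 8 fell with GATA1TSS and with eHDAC6, where 13.7% and 15.3% of all genes fell. Against the 4, 1 (KLF1, -0.85) fell with GATA1TSS and none with eHDAC6 (5.39% and 0.587% of all genes). Also against the 4, GATA1TSS-Guide1 alone gave 1 fall (0.137% of all genes) and GATA1TSS-Guide2 alone gave 5 (9.86%). The part of the split of the NC libraries in the changes of the leukocyte genes was not tested.

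**Figure D4:**
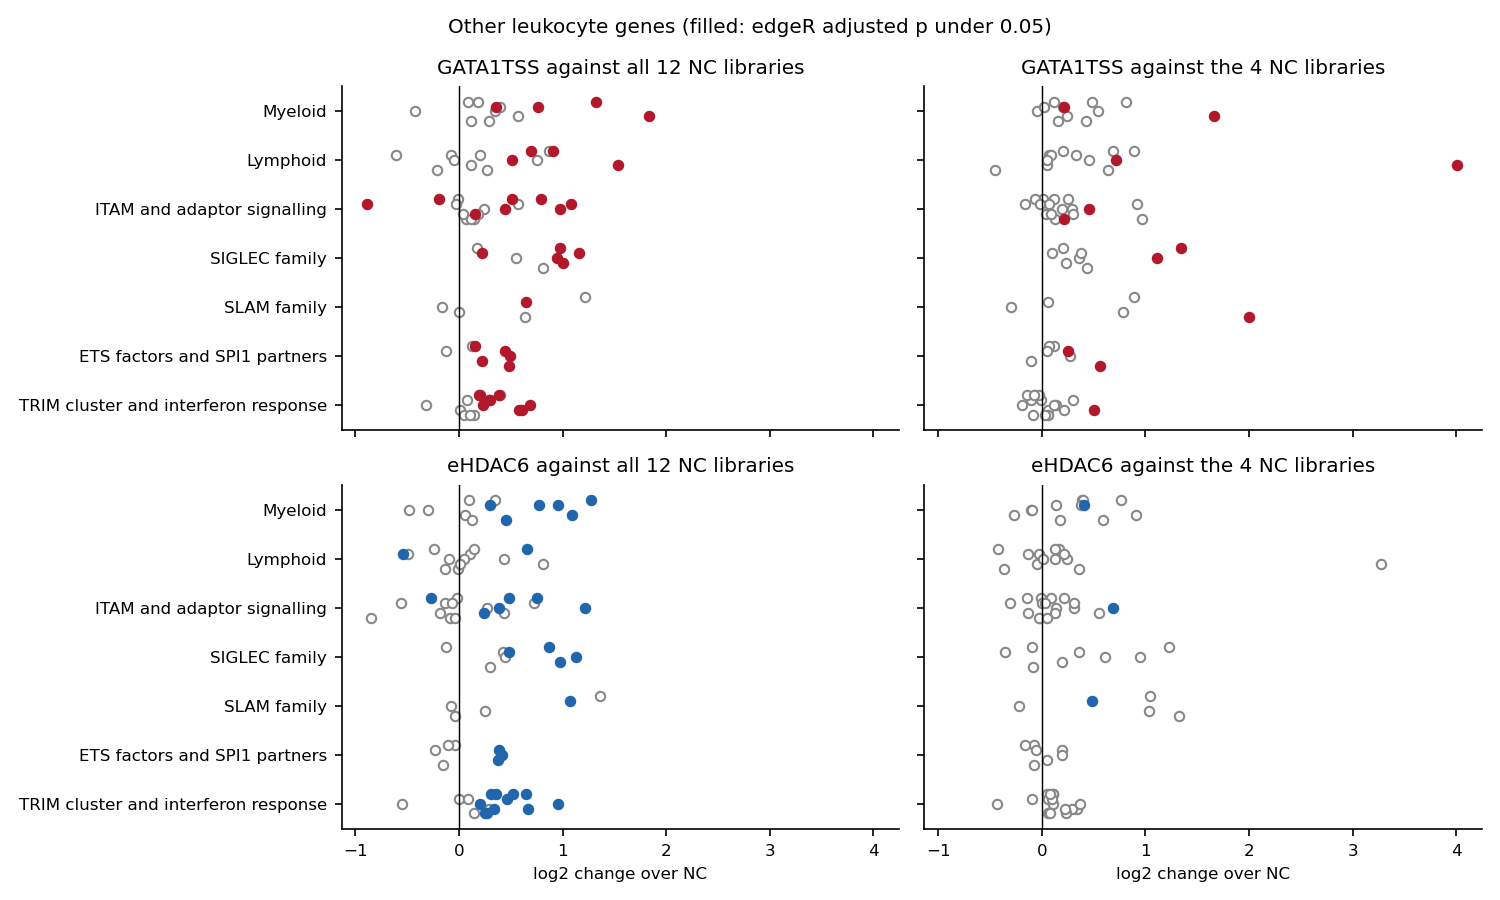
Log2 change over NC (horizontal axes) of each other leukocyte gene tested, by list (rows), with GATA1TSS (top) and eHDAC6 (bottom) against all 12 NC libraries (left) and against the 4 (right); filled points had an edgeR adjusted p under 0.05. Against all 12, 34 genes rose with GATA1TSS and 31 with eHDAC6, and against the 4, 12 and 3.

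Relatives and partners of the genes moved in part. GATA1TSS gave 6 rises and 2 falls among the 17 genes tested of the ITAM and adaptor list (13.5% and 13.7% of all genes). With eHDAC6 there were 5 and 1 (15.8% and 15.3% of all genes). The genes that fell were ZAP70 with GATA1TSS (-0.89, SE 0.30) and FYN with both elements (-0.19 and -0.27, SE 0.05 each). Neither passed against the 4, and the ZAP70 fall was not called with either GATA1TSS sgRNA taken alone. The falls were 1 with GATA1TSS without GATA1TSS-Guide1 replicate 1 or 2, NC-Guide3 replicate 1 or NC-Guide4 replicate 1. They were 2 with eHDAC6 without GATA1TSS-Guide2 replicate 2, NC-Guide1 replicate 1, NC-Guide2 replicate 2 or NC-Guide3 replicate 3. PTPN6, the phosphatase SHP-1 that binds the inhibitory tails of Siglecs, rose by 0.97 with GATA1TSS (SE 0.16) and 1.21 with eHDAC6 (SE 0.16), and passed against the 4 with both (0.46 and 0.69). VAV1, an exchange factor of blood cells, rose by 0.79 (SE 0.11) and 0.75 (SE 0.11) but did not pass against the 4 (0.26 and 0.21). SYK, the kinase that ITAM adaptors recruit, stood at 0.12 with GATA1TSS (edgeR adjusted p = 0.0754) and at -0.04 with eHDAC6 (edgeR adjusted p = 0.536), and passed against the 4 with GATA1TSS (0.21). It was named for its place beside TYROBP after its values were seen. In the Siglec family 5 of 8 rose with GATA1TSS and 4 with eHDAC6 (13.5% and 15.8% of all genes). The 5 became 2 without GATA1TSS-Guide1 replicate 1 or GATA1TSS-Guide2 replicate 3, and 3 without GATA1TSS-Guide1 replicate 3 or NC-Guide1 replicate 3. SIGLEC12, whose start lies 30.1 kb from that of SIGLEC6, rose by 1.01 (SE 0.16) and 0.97 (SE 0.17) and did not pass against the 4 (0.24 and 0.19). In the SLAM family 1 of 5, CD84, rose with each element, where 13.5% of all genes rose with GATA1TSS and 15.8% with eHDAC6. CD84 rose by 0.65 with GATA1TSS (SE 0.13) and by 1.07 with eHDAC6 (SE 0.13). Against the 4 it stood at 0.06 and did not pass with GATA1TSS, and at 0.48 and passed with eHDAC6. With 1 library left out, 2 SLAM genes rose with eHDAC6 in 8 of 24 fits.

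Of 7 ETS factors and SPI1 partners tested, 5 rose with GATA1TSS and 3 with eHDAC6 (13.5% and 15.8% of all genes). Without GATA1TSS-Guide1 replicate 1 or 3, 3 rose with GATA1TSS. ELF4, an ETS factor, averaged 160 ± 11.03 CPM with GATA1TSS (SD, n = 6) and 154 ± 6.27 CPM with eHDAC6 (n = 6), against 118 ± 16.1 CPM in NC libraries (n = 12). It rose by 0.45 (SE 0.06, edgeR adjusted p = 1.44e-06) and 0.39 (SE 0.06, edgeR adjusted p = 2.04e-05), and passed against the 4 with GATA1TSS (0.25). ETV6, an ETS repressor, rose by 0.49 (SE 0.08) and 0.41 (SE 0.08), and did not pass against the 4. GFI1, a repressor that acts in granulocyte development, rose with GATA1TSS by 0.48 (SE 0.13; 0.56 and passed against the 4) and stood at -0.15 with eHDAC6. In the TRIM and interferon list 9 of 16 rose with GATA1TSS and 11 with eHDAC6 (13.5% and 15.8% of all genes). With the 4 as controls, 1 and 0 rose (4.84% and 0.899% of all genes). Without GATA1TSS-Guide2 replicate 3, 5 rose with GATA1TSS. That 1 was TRIM38, a relative of TRIM22, which rose by 0.61 with GATA1TSS (SE 0.06; 0.50 against the 4) and by 0.34 with eHDAC6 (SE 0.06; 0.22 and not passed against the 4).

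Genes that start within 50 kb of one of the 10 genes numbered 29 after the filter. Of these 9 rose and 1 fell with GATA1TSS, and eHDAC6 gave the same counts (13.5% and 13.7% of all genes with GATA1TSS, 15.8% and 15.3% with eHDAC6). Against the 4, 3 rose with GATA1TSS (AP4B1-AS1, LTB and AIF1) and 2 with eHDAC6 (AP4B1-AS1 and AIF1). The falls were 2 or 3 with GATA1TSS without GATA1TSS-Guide2 replicate 2 or 3 or NC-Guide2 replicate 1, and 2 with eHDAC6 without eHDAC6-Guide2 replicate 3. At LST1, the lymphotoxin gene LTB, 3.8 kb away, rose by 1.04 with GATA1TSS (SE 0.27), passed against the 4 and stood at 0.70 with eHDAC6. AIF1, a macrophage protein 28 kb away that was picked after its values were seen, rose by 0.76 with GATA1TSS (SE 0.11) and 0.78 with eHDAC6 (SE 0.11) and passed against the 4 with both (0.54 and 0.56). At TYROBP, NFKBID, 7.7 kb away, rose by 0.95 (SE 0.15) and 0.98 (SE 0.15) and did not pass against the 4 (0.36 and 0.39). The tested neighbours of SPI1, SLC39A13 and PSMC3, were not called with either element.

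The genes with the most similar profile to SPI1 over the 24 libraries, by the mean absolute difference of centred log2 CPM, were ADGRE5 (0.0860), PITPNM1 (0.0881), PPP1R18 (0.0886), PLA2G15 (0.0978) and RASSF7 (0.102). The median over 9975 genes at 5 CPM or more was 0.406, and a flat profile gave 0.391. CD33 ranked 34 (0.137), TYROBP ranked 899 (0.275) and SIGLEC6 ranked 9546 (0.627). The measure is not scaled for the size of a change, so a gene with a similar order and larger changes also scores as unlike, and LST1 and FCER1G, below 5 CPM, were not ranked. ADGRE5, the adhesion receptor CD97 of leukocytes, averaged 171 CPM with GATA1TSS, 164 CPM with eHDAC6 and 112 CPM in NC libraries. Libraries of one sgRNA are not independent points in this measure, and it says nothing of shared control.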

How the data were processed

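K562 libraries were grouped by the sgRNA in their titles. The authors deposited raw counts, whole numbers for each gene symbol in each library. They also deposited a set of hg19 RefSeq models. TopHat2 2.0.8, Bowtie2 2.1.0, SAMtools 0.1.19 and Picard are named, without role, per the submitters' processing notes. Which tool counted the reads, and whether by strand, is not given in the sources used here. In the deposited counts the value 2 occurs 22549 times and the value 1 19352 times, so both mates of a pair may often have been counted, and low counts then rest on fewer fragments. Entries with a date in place of a symbol, 21 in number with 0.198% of the counts, were kept and not named.

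Counts were fitted with edgeR 4.0.16 (limma 3.58.1, R 4.3.3), with TMM scaling, 1 coefficient per sgRNA and quasi-likelihood F tests. Before the fit, edgeR's filter (minimum count 10, minimum total 15, proportion 0.7) left 13147 genes. The fit was also run on simulated counts without the split of the NC libraries, which cannot give its error rate in these data. Each element, as the mean of its sgRNAs, was set against the mean of NC. A gene was called at a Benjamini-Hochberg adjusted p under 0.05 over all genes tested. Standard errors came from the F statistic, and the error is that among replicates within sgRNAs. Library totals, 4290343 to 23205811 counts, set the precision of low values. Floors are 3 counts and cover counting error only. Principal components used the 2000 most variable genes. Promoters came from RefSeq (GRCh38.p14), and FYB was matched as FYB1.

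The genes, the lists and the control split were chosen with earlier results of these data known. Named genes were the 10, GATA1, up to 4 genes per list with the largest called changes with GATA1TSS and up to 2 with eHDAC6, the same for genes within 50 kb, and the 5 genes most like SPI1 at 5 CPM or more (log2 CPM with prior count 2). Others, such as LYZ and the markers near 0, were named after their values were seen. A gene that the rule names is not reported here. The comparison of eHDAC6 with GATA1TSS-Guide1 and of eHDAC6 with GATA1TSS-Guide2 was added after the data were seen. Alternatives were DESeq2 1.42.0, RLE scaling, no filter, a replicate term, each control subset, counts summed per sgRNA, single sgRNAs and leaving out each library. The comparisons share their NC libraries.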

Additional observations from a re-analysis of the deposited data

How the results depend on the processing

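With the 4 NC libraries as the only controls, the count of the 9 genes called was 4 with eHDAC6 and 0 among the NC sgRNAs, other leukocyte genes counted 12 up and 0 down with GATA1TSS and 3 up and 0 down with eHDAC6, and the GATA1TSS change turned in sign for CD33 (-0.022) and FYB (-0.41) and, among listed genes called against all 12, for GATA2 (-0.11), IFITM2 (-0.028), IFITM3 (-0.10), TRIM6 (-0.08), BST2 (-0.06), HBZ (0.12) and LMO2 (0.04). With the 8 as the only controls, 0 of the 9 were called among the NC sgRNAs. With counts summed per sgRNA, in a fit with fewer samples, 1 of the 9 was called with eHDAC6. Other leukocyte genes counted 10 up and 0 down with GATA1TSS and 5 up and 0 down with eHDAC6. The share of all genes in that fit was not computed. Against all 12 NC libraries, GATA1TSS-Guide1 alone gave 11 rises and 2 falls among other leukocyte genes (6.21% and 5.8% of all genes). GATA1TSS-Guide2 alone gave 41 rises and 1 fall (12.4% of all genes in each direction). With eHDAC6-Guide1 alone there were 25 rises and 2 falls (9.33% and 7.35% of all genes). With eHDAC6-Guide2 alone there were 26 rises and 1 fall (10.3% and 8.91% of all genes). The cause of the differences between these settings was not tested.

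Leaving out 1 library at a time gave 0 of the 9 genes between the eHDAC6 sgRNAs, 2 to 6 among the NC sgRNAs, 8 to 9 with GATA1TSS, 9 with eHDAC6 and 4 to 5 between the GATA1TSS sgRNAs. Other leukocyte genes ranged over 22 to 36 rises and 1 to 2 falls with GATA1TSS and 29 to 34 rises and 1 to 3 falls with eHDAC6. With the replicate number as a block, 9 of the 9 genes were called with GATA1TSS, 9 with eHDAC6, 5 between the GATA1TSS sgRNAs, 4 among the NC sgRNAs and 0 between the eHDAC6 sgRNAs, and other leukocyte genes counted 35 rises and 32 rises with 2 falls each. Libraries with the same number deviated together with correlations of -0.197 to 0.431 (median 0.0158), and 8 of 84 pairs were over 0.1, so the numbers were not taken to pair the libraries. RLE scaling, no filter and DESeq2 kept every count within 1.5 times of the value reported. Depth limits LST1, TRIM22 and FCER1G most.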
